A study of Homo sapiens with 6 samples.

Results

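NF-kB transcription factors were followed at the level of mRNA after knockdown of OSGEP in the human suspension line HL-60, which derives from an acute myeloid leukaemia. The set was given by name and holds 10 genes of the 58302 in the count tables. It consists of the 5 subunits NFKB1, NFKB2, REL, RELA and RELB, the inhibitors NFKBIA and NFKBIE, and the feedback or target genes TNFAIP3, TNFAIP2 and BIRC3. Cells with a short hairpin RNA (shRNA) against OSGEP (3 libraries, here the knockdown) were compared with cells carrying a control hairpin, whose genotype is labelled WT (3 libraries, the control). OSGEP is the catalytic subunit of KEOPS, which places the t6A modification on those tRNAs whose codons begin with A, and the study asked what it does in leukaemia cells. Knockdown lines were established before RNA was taken, but no label gives the number of hairpins or lines, the time, or whether the 3 libraries stem from different cultures. The p-values therefore reflect how much these libraries vary, which may be technical variation alone.

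NF-kB proteins bind DNA as dimers of subunits that share the Rel homology domain. In resting cells, inhibitors of the I-kappaB family hold the dimers in the cytoplasm. Receptors for TNF, IL-1 or bacterial products activate the I-kappaB kinase (IKK), the inhibitor is degraded, and dimers of RELA and NFKB1 (p50) enter the nucleus, which is called the canonical route. In the noncanonical route, NFKB2 (p100) is processed and pairs with RELB. Many genes that restrain the pathway are themselves targets of it, among them NFKBIA, NFKBIE and TNFAIP3. BIRC3 is a target too, and in myeloid cells the pathway is known for driving cytokine and survival genes.

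Promoter sequence is shown first, because several members are known to carry NF-kB sites near their start. RefSeq windows of 300 bases (250 before and 50 after an annotated start, GRCh38.p14) existed in the table used for 8 of the 10 members, in 12 windows, and RELB and NFKBIE had none there. On either strand, the degenerate kappaB consensus was present in at least 1 window of 6 of these 8 genes (75.0%), against 13.3% of the 27305 genes with a window. Counted by window, it was present in 7 of 12 member windows and in 11.3% of all 35116. Overlapping matches were counted separately, and a palindromic match once. A match of letters is a description and does not show binding. Sequences below are written 5′ to 3′ on the strand of the gene, with the matches in capitals, and those that touch an annotated exon are cut to at most 30 bases. NFKBIA and TNFAIP2 are shown as the members that rose in the knockdown. BIRC3 and TNFAIP3 are shown as feedback or target genes, and NFKB2, NFKB1 and REL as subunits with a match.
NFKBIA, chr14:35404796-35404855, minus strand: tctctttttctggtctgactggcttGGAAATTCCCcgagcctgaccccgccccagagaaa
TNFAIP2, chr14:103123342-103123441, plus strand: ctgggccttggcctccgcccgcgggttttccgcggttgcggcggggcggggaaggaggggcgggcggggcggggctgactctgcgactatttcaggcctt
BIRC3, chr11:102317260-102317383, plus strand: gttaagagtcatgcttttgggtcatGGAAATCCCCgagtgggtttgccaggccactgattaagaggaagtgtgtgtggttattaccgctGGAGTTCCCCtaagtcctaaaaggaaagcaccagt
TNFAIP3, chr6:137867188-137867217, plus strand: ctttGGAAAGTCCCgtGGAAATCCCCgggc
NFKB2, chr10:102394462-102394490, plus strand: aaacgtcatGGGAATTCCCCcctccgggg
NFKB2, chr10:102394490-102394519, plus strand: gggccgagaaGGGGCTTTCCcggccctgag
NFKB2, chr10:102395504-102395563, plus strand: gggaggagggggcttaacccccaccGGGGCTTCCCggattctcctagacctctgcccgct
NFKB2, chr10:102395674-102395703, plus strand: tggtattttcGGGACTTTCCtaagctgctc
NFKB1, chr4:102501300-102501329, plus strand: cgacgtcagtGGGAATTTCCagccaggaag
REL, chr2:60881518-60881546, plus strand: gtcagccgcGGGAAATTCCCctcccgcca

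In NFKBIA the match began 81 bases before the start, on the strand opposite to the gene. BIRC3 had 2 matches, which began 199 and 135 bases before its start, and those of TNFAIP3 began 67 and 55 bases before. All distances are to the RefSeq starts of the windows, which can differ from the GENCODE gene positions given below. By those positions, the matches of TNFAIP3, REL and NFKB2 lie inside the gene, those of TNFAIP3 and REL in annotated exons. NFKB2 has 3 annotated starts and held 5 matches, in the 2 windows that lie farther downstream. In the windows of TNFAIP2 and RELA no stretch met the consensus, which says only that these letters are not there. Of the members that rose, NFKBIA thus had a match and TNFAIP2 had none.

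Depth was 8326982 to 10157091 counts a library, and between 18282 and 19374 genes had a count. OSGEP mRNA was 21.2, 23.1 and 20.9 CPM (counts scaled to a common library total, with TMM factors) in the knockdown, always in the order of libraries 1, 2 and 3, and 49.0, 54.4 and 76.9 CPM in the control, so the knockdown was visible in every library. All 12 HL-60 and myeloid markers listed had counts that passed the filter, and they did not move one way. The granule genes MPO, ELANE, AZU1 and PRTN3 fell, and the whole list, which MPO and PRTN3 dominate, summed to 3135 to 3284 CPM per control library and 1496 to 1565 per knockdown library. LYZ (control 154 ± 37.1, knockdown 216 ± 16.9 CPM) and PTPRC (control 72.1 ± 6.73, knockdown 100.5 ± 15.1 CPM, SD, n = 3 each) had every knockdown library above every control library. Neither was called by edgeR (adjusted p = 0.0534 and 0.0625), while DESeq2 called both higher and limma-voom LYZ. CTSG, a further granule gene, had every knockdown library below every control library (control 28.4 ± 5.37, knockdown 17.3 ± 0.763 CPM). It was not called either (edgeR adjusted p = 0.0848). Of the 12 markers, 2 were apart higher and 5 apart lower, as were 13.3% and 15.6% of all genes tested. The erythroid and megakaryocytic list summed to at most 9.38 CPM in any library, and GP9 was among its genes at 0. The 10 lymphoid markers, 3 of them tested, summed to 88.4 to 102 CPM per control library and 32.5 to 38.0 per knockdown library, mostly NKG7, which fell (86.1 ± 7.16 to 23.3 ± 1.81 CPM, SD, n = 3 each). Of 6 epithelial markers, CDH1 rose, and the list summed to 20.6 to 25.4 CPM per control library and 28.0 to 61.8 per knockdown library. The 8 mesenchymal and endothelial markers summed to 67.8 to 83.8 CPM per control library and 45.8 to 72.6 per knockdown library, with CDH5 at 0. These sums were mostly PECAM1 (control 66.2 ± 8.50, knockdown 46.7 ± 12.3 CPM, SD, n = 3 each), which was not called (edgeR adjusted p = 0.13). Whether these shifts bear on the values below was not tested, and in bulk RNA fewer cells of a type and less RNA per cell cannot be told apart.

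The members are protein-coding genes spread over 7 chromosomes (GRCh38, GENCODE release 29). NFKBIA (ENSG00000100906) lies at chr14:35401511-35404749 and TNFAIP2 (ENSG00000185215) at chr14:103123442-103137439. NFKB2 is at chr10:102394110-102402529, NFKBIE at chr6:44258166-44265788, TNFAIP3 at chr6:137867188-137883312 and BIRC3 at chr11:102317450-102339403. RELA is at chr11:65653596-65663094, NFKB1 at chr4:102501329-102617302, REL at chr2:60881521-60931610 and RELB at chr19:45001430-45038198.

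All 10 members passed the filter on low counts. NFKBIA and TNFAIP2 rose in the knockdown (edgeR, adjusted p under 0.05 over the 14018 genes tested), and 0 members fell, by edgeR, DESeq2 or limma-voom or at an unadjusted p under 0.05 in edgeR. That is 2 of 10 called higher, where 5.19% of all genes tested were called higher and 5.56% called lower. NFKBIA, TNFAIP2, NFKB2 and NFKBIE had every knockdown library above every control library, as did 13.3% of all genes tested. A further 15.6% of genes had every knockdown library below every control library, and none of the members did. DESeq2 called 4 members higher, NFKB2 and NFKBIE in addition, with 6.81% of all genes called higher, and limma-voom called 3, NFKBIE in addition, with 4.9%. The log2 fold change was above 0 for all 10 members in the main fit, with a median of 0.48 against 0.005 over all genes tested. The members were chosen with earlier results of these data known, so these shares and medians are a description only. The signs of NFKB1, REL and RELB turned under at least 1 alternative fit.

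**Figure D1:**
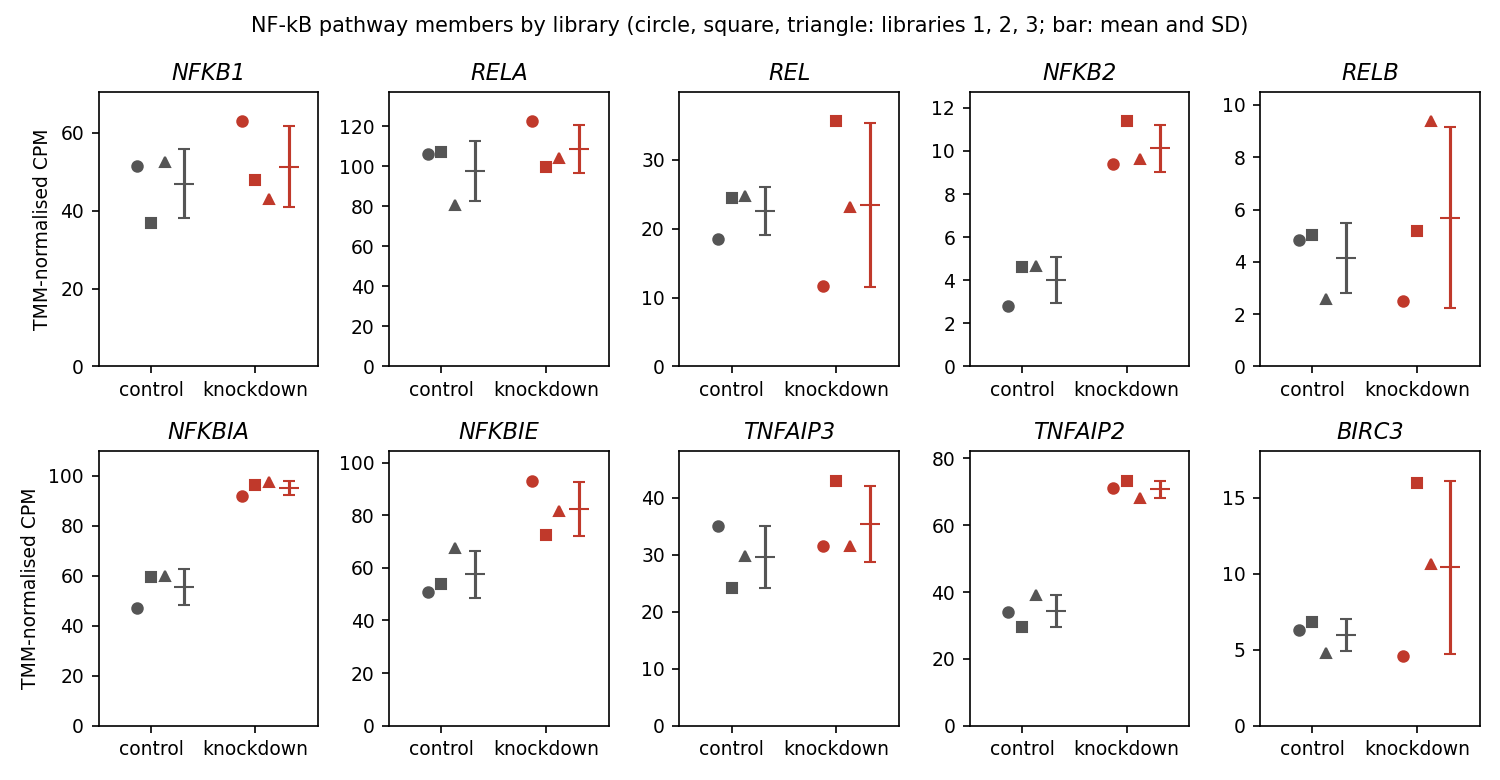
TMM-normalised CPM (vertical axes, each starting at 0) of the 10 members in control (grey) and knockdown (red) libraries; circles, squares and triangles are libraries 1, 2 and 3, and the bars give mean and SD. The groups are apart for NFKB2, NFKBIA, NFKBIE and TNFAIP2 and overlap for the other 6.

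The canonical subunits were close in level between the groups. RELA, the p65 subunit with the main transactivation domain, stood at 123, 99.8 and 104 CPM in the knockdown and at 106, 107 and 80.6 CPM in the control. The groups overlapped, and control 3 was the lowest of the 6. The log2 fold change was 0.15 (SE 0.15, 95% interval -0.17 to 0.48, edgeR adjusted p = 0.638), and changes within that interval cannot be told from none. NFKB1, the precursor of p50, measured 62.9, 48.0 and 43.1 CPM in the knockdown and 51.4, 36.8 and 52.6 CPM in the control, again with overlap. Its log2 fold change was 0.13 (SE 0.20, interval -0.30 to 0.56, edgeR adjusted p = 0.788), and it stood at -0.04 without knockdown 1 and -0.02 without control 2.

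REL encodes c-Rel, a subunit prominent in blood cells. It varied more within the knockdown than between the groups. Its values were 11.7, 35.6 and 23.1 CPM in the knockdown and 18.5, 24.4 and 24.7 CPM in the control, so knockdown 1 was the lowest and knockdown 2 the highest of all 6 libraries. The log2 fold change was 0.06 (SE 0.33, interval -0.65 to 0.77, edgeR adjusted p = 0.948) and became -0.37 without knockdown 2.

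NFKB2 and RELB, the pair of the noncanonical route, were low, and only NFKB2 separated the groups. NFKB2 was at 9.39, 11.4 and 9.61 CPM in the knockdown and 2.78, 4.603 and 4.68 CPM in the control. All 3 knockdown libraries were above all 3 control libraries, with no value in between. The log2 fold change of 1.33 was the largest of the members (SE 0.45, interval 0.37 to 2.29), but it did not pass the test (unadjusted p = 0.00984, edgeR adjusted p = 0.076) and passed in 1 of 13 alternative fits, DESeq2 (1.35, DESeq2 adjusted p = 0.037). RELB was at 2.50, 5.18 and 9.37 CPM in the knockdown and 4.84, 5.01 and 2.58 CPM in the control. These values overlapped, with the lowest and the highest of the 6 both in the knockdown. Its log2 fold change of 0.45 (SE 0.62, interval -0.86 to 1.76, edgeR adjusted p = 0.753) went to -0.10 without knockdown 3. Its knockdown counts were 24, 56 and 79.

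The inhibitor NFKBIA rose. I-kappaB-alpha, its product, binds dimers of RELA and p50 and is resynthesised as a target of the pathway. NFKBIA was at 91.8, 96.2 and 97.4 CPM in the knockdown and at 47.0, 59.5 and 59.7 CPM in the control. The knockdown libraries lay close together and all above the control, and the means were 95.1 ± 2.92 and 55.4 ± 7.29 CPM (SD, n = 3 each). This is a 1.72-fold rise, a log2 fold change of 0.78 (SE 0.15, interval 0.45 to 1.11, edgeR adjusted p = 0.00314), called in all 13 alternative fits.

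NFKBIE encodes I-kappaB-epsilon, an inhibitor that acts mainly on dimers with RELA or c-Rel. It measured 93.2, 72.7 and 81.5 CPM in the knockdown and 50.9, 54.0 and 67.7 CPM in the control. The groups were apart, though control 3 and knockdown 2 lay close together. With a log2 fold change of 0.52 (SE 0.17, interval 0.16 to 0.88) it was not called in the main fit (edgeR adjusted p = 0.0606). It was called in 6 of 13 alternative fits, at 0.59 with library size alone, 0.53 without the filter, 0.54 with a mean CPM filter of 5, 0.54 with DESeq2, 0.53 with limma-voom and 0.62 without knockdown 2.

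TNFAIP2 had the largest called rise among the members. Its product, also called M-Sec, is a TNF-induced protein found in myeloid cells and is linked to the formation of membrane nanotubes. TNFAIP2 was at 71.2, 73.1 and 68.1 CPM in the knockdown and 33.9, 29.7 and 39.3 CPM in the control, so the knockdown libraries were high and close together. The means of 70.8 ± 2.55 and 34.3 ± 4.81 CPM (SD, n = 3 each) differed 2.07-fold, a log2 fold change of 1.05 (SE 0.17, interval 0.68 to 1.42, edgeR adjusted p = 0.000776). All 13 alternative fits called it.

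TNFAIP3 encodes A20, an enzyme that edits ubiquitin chains and shuts the pathway off. It was at 31.6, 43.0 and 31.5 CPM in the knockdown and 35.04, 24.1 and 29.8 CPM in the control, with overlap. The log2 fold change was 0.26 (SE 0.23, interval -0.23 to 0.74, edgeR adjusted p = 0.583). TNFAIP3 overlaps the antisense gene WAKMAR2, which had 14, 30 and 2 counts in the knockdown and 43, 27 and 65 in the control. The strand setting of the counting is not given in the sources used here, so reads of this pair may not be told apart. BIRC3, the ubiquitin ligase cIAP2, was at 4.59, 16.0 and 10.7 CPM in the knockdown and 6.29, 6.85 and 4.80 CPM in the control. Knockdown 1 was the lowest of all and knockdown 2 the highest, and the log2 fold change of 0.80 (SE 0.48, interval -0.21 to 1.81, edgeR adjusted p = 0.358) ran from 0.35 to 1.15 when single libraries were left out. REL, RELB and BIRC3 were each lowest in knockdown 1 among the 6 libraries, while NFKB1, RELA and NFKBIE were each highest there.

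**Figure D2:**
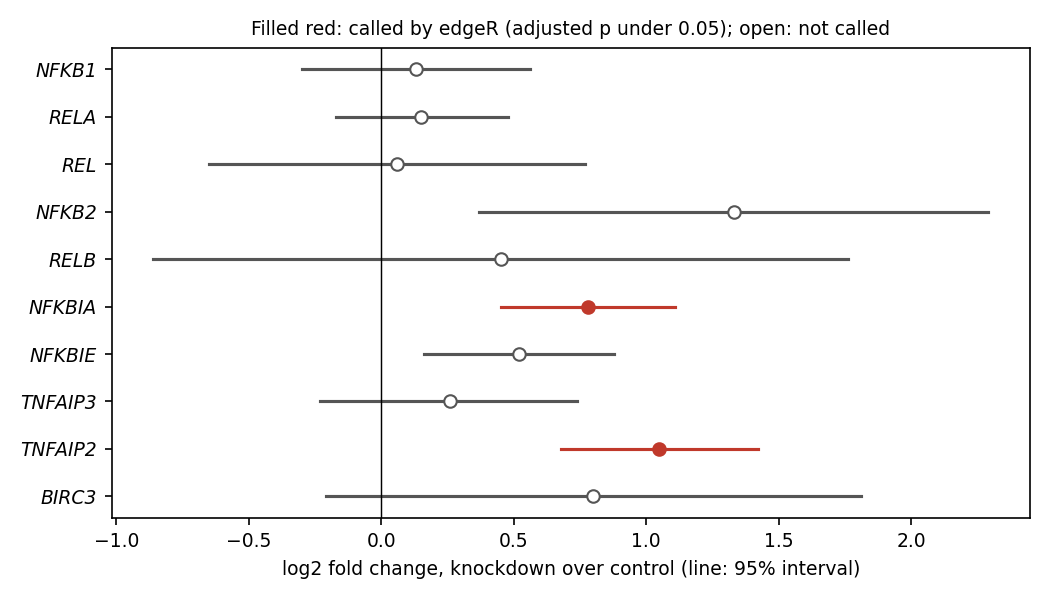
Log2 fold change (horizontal axis) of each member in the knockdown over the control with its 95% interval; filled red points were called by edgeR and open points were not. NFKBIA at 0.78 and TNFAIP2 at 1.05 were called, and the intervals of NFKB2 and NFKBIE also lie above 0, before adjustment over all genes.

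Levels of different genes were compared as TPM, which divides each count by the exon length of its gene and scales every library to the same sum. In the control, NFKBIA (38.8 ± 4.82 TPM, SD, n = 3) and NFKBIE (37.0 ± 5.26) were the most abundant members, and their libraries overlapped. RELA followed at 29.8 ± 4.89 TPM, apart from NFKBIE on exon length, and then NFKB1 (12.5 ± 2.28), TNFAIP2 (11.3 ± 1.48) and TNFAIP3 (9.76 ± 1.83), each overlapping the next. REL (2.85 ± 0.419), RELB (2.28 ± 0.764), NFKB2 (1.49 ± 0.387) and BIRC3 (1.32 ± 0.247) formed a low group, apart from TNFAIP3 and overlapping their neighbours in this order. In the knockdown the order differed. TNFAIP2 (25.3 ± 2.12 TPM) stood above NFKB1 (14.7 ± 2.57) with no overlap, and NFKB2 (4.07 ± 0.670), RELB (3.37 ± 2.01), REL (3.26 ± 1.82) and BIRC3 (2.54 ± 1.504) followed TNFAIP3 (12.7 ± 3.09), with overlap between neighbours among these 4. NFKBIA (72.0 ± 5.41), NFKBIE (57.1 ± 4.35) and RELA (35.6 ± 2.54) kept their places and were apart from each other. TPM carry no TMM factor, and RELA, whose groups overlapped in CPM, ran from 24.2 to 32.7 TPM in the control and from 33.6 to 38.5 TPM in the knockdown, without overlap. With the length of the longest transcript in place of all exons, RELA came second in each group, at 45.1 and 53.6 TPM, and overlapped NFKBIE, at 32.6 and 50.02 TPM. By that length TNFAIP2 (23.8 TPM) and NFKB1 (19.7) overlapped in the knockdown, and NFKB1 (16.8) was apart from TNFAIP2 (10.7) in the control.

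**Figure D3:**
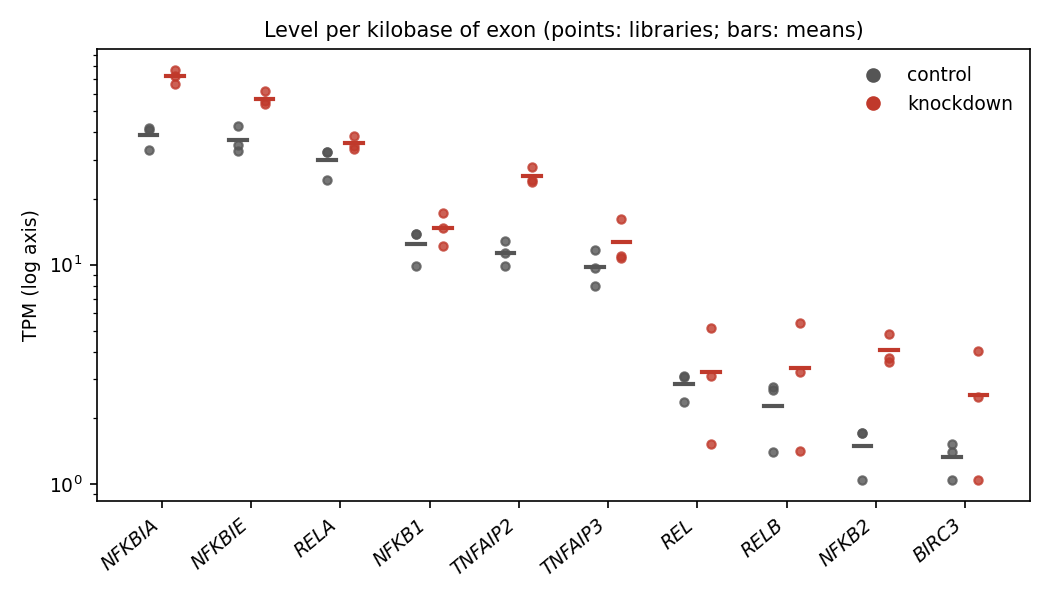
TPM (log axis) of the members in control (grey) and knockdown (red) libraries, ordered by the control mean; points are libraries and bars are means. The inhibitors NFKBIA and NFKBIE and the subunit RELA are the most abundant, and REL, RELB, NFKB2 and BIRC3 have means below 5 TPM in each group.

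RELA made up most of the subunit mRNA. Of the summed TPM of the 5 subunits, RELA took 62.1%, 65.3% and 54.8% in the control and 61.8%, 55.6% and 57.9% in the knockdown, with overlap. The share of NFKB2 was 1.98%, 3.42% and 3.87% in the control and 5.77%, 7.71% and 6.503% in the knockdown, with no overlap, while those of NFKB1, REL and RELB overlapped.

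As OSGEP acts on tRNAs for codons starting with A, the share of such codons in the longest complete coding sequence of each member was counted from GENCODE release 29. Over 11105 coding genes tested the median share was 27.1%, and the tenth and ninetieth percentiles were 19.3% and 32.7%. No member reached the ninetieth percentile, and 6 of the 10 lay at 21.3% or less. NFKBIE had 14.8% (74 of 499 codons), a value with 2.21% of genes below it, and NFKBIA 19.3% (61 of 316). RELB had 19.9%, NFKB2 20.2%, RELA 21.1% and TNFAIP2 21.3%, the last with 16.5% of genes below it. NFKB1 lay just below the median at 26.8%, and TNFAIP3 (29.3%), BIRC3 (30.4%) and REL (30.6%) lay above it. These counts concern the sequence only, and protein levels were not analysed here.

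The rest of the pathway was read from 7 lists with 140 genes, of which 109 passed the filter, 13 rose and 6 fell. Over all genes tested, 5.19% were called higher and 5.56% lower, and the counts of each list below stand beside these shares. The lists too were chosen with earlier results of these data known. Among 5 other I-kappaB proteins, 0 were called by edgeR, DESeq2 or limma-voom (median log2 fold change 0.02). At an unadjusted p under 0.05 in edgeR 1 was lower, BCL3 (-0.98, edgeR adjusted p = 0.111), named after its value was seen. The most abundant were NFKBID at 43.4 ± 4.38 CPM (control) and 44.1 ± 9.85 CPM (knockdown), and NFKBIB at 22.7 ± 2.21 and 24.3 ± 3.54 CPM (SD, n = 3 each). Their log2 fold changes of 0.02 and 0.10 had edgeR adjusted p-values of 0.969 and 0.879. Of 13 genes of IKK and its activating kinases, 1 fell and 0 rose (median -0.15; 0 rose by DESeq2, limma-voom or at an unadjusted p under 0.05 in edgeR). It was IKBKB, the IKK-beta kinase of the canonical route, at 33.6, 28.5 and 46.6 CPM in the knockdown and 54.1, 63.1 and 54.8 CPM in the control. The fall of 0.66 on the log2 scale (edgeR adjusted p = 0.0479) was called in 5 of 13 alternative fits and, of the fits that left out a library, only without knockdown 3, with values from -0.87 to -0.51.

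Of 24 tested adaptors and ubiquitin enzymes upstream of IKK, 3 rose and 2 fell (median -0.02). MYD88, the adaptor of Toll-like and IL-1 receptors, was at 139, 146 and 133 CPM in the knockdown and 65.1, 94.2 and 67.8 CPM in the control. It rose by 0.88 on the log2 scale (edgeR adjusted p = 0.00131) and was called in all 13 alternative fits. RIPK1, the kinase recruited to the TNF receptor, rose from 13.5 ± 2.47 to 27.2 ± 3.86 CPM (1.01, edgeR adjusted p = 0.0231). TRAF3, which restrains the noncanonical route, rose from 23.1 ± 3.55 to 44.5 ± 16.1 CPM (0.95, edgeR adjusted p = 0.0254; SD, n = 3 each). Each was called in 8 of 13 alternative fits. For RIPK1 the call was lost without knockdown 2 (0.90) or 3 (1.03) and without control 2 (0.89) or 3 (0.97). TRAF3 lost its call without knockdown 1 (0.61) or any 1 control (0.88, 0.88 and 1.08). Named after their values were seen, the 2 falls were IRAK3, a brake on MYD88 signalling, at -0.78 (edgeR adjusted p = 0.00143, called in all 13 alternative fits) and UBE2N, which makes ubiquitin chains, at -0.42 (edgeR adjusted p = 0.0368). UBE2N was called in 5 of 13 alternative fits and, of those that left out a library, only without knockdown 1. Of 15 tested deubiquitinases and other negative regulators, 0 were called by edgeR, DESeq2 or limma-voom (median 0.26), while 4 were higher and 1 lower at an unadjusted p under 0.05 in edgeR. The most abundant were TAX1BP1 at 0.20 and TNIP1 at 0.04.

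Ligands and receptors changed in single genes. Of 9 tested ligands, 2 rose and 0 fell (median 0.39), with 2 lower at an unadjusted p under 0.05 in edgeR, 0 by DESeq2 and 1, CD70 (named after its value was seen), by limma-voom. IL1B, the cytokine interleukin-1 beta, was at 34.4, 21.0 and 27.2 CPM in the knockdown and 4.02, 3.07 and 4.31 CPM in the control, a log2 fold change of 2.86 (SE 0.33, edgeR adjusted p = 2.73e-05). TNFSF14, the ligand LIGHT of the lymphotoxin beta receptor, rose from 7.41 ± 1.04 to 39.3 ± 6.87 CPM (2.40, edgeR adjusted p = 1.68e-05; SD, n = 3 each). TNF was not called, at 18.6 ± 0.323 and 24.3 ± 8.57 CPM (0.39, edgeR adjusted p = 0.483), and is named here after its value was seen. Of 14 tested receptors, 2 rose and 0 fell (median 0.26), with 1 lower at an unadjusted p under 0.05 in edgeR. Named after their values were seen, DESeq2 and limma-voom each called TNFRSF1B lower, and DESeq2 called 5 higher, TNFRSF10B, IL1R1, TLR4, LTBR and CD40, where limma-voom called only TNFRSF10B. The TRAIL receptor TNFRSF10B rose by 0.95 (edgeR adjusted p = 0.00632), lost without knockdown 3 (0.75) or control 2 (0.81). The other, named after its value was seen, was IL1R1, the signalling receptor of IL-1, with 89, 58 and 44 counts in the knockdown and 0, 2 and 10 in the control. Its log2 fold change of 3.81 (edgeR adjusted p = 0.0233) was 5.84 without control 3, and it was not called without knockdown 1 (3.47) or 3 (3.97) or control 1 (3.21) or 2 (3.44), nor by limma-voom (4.67).

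Of 29 tested genes that are widely cited as NF-kB targets, 6 rose and 3 fell (median 0.40). CCL2, the monocyte chemokine, was at 134, 150 and 155 CPM in the knockdown and 7.63, 5.22 and 3.20 CPM in the control (4.76 as log2 fold change, SE 0.24, edgeR adjusted p = 2.31e-09). BCL2A1, a survival gene of the BCL2 family, rose from 5.43 ± 2.14 to 26.1 ± 3.31 CPM (2.26), and SDC4, a heparan sulfate proteoglycan, from 17.5 ± 4.21 to 59.4 ± 4.86 CPM (1.76; SD, n = 3 each). These 3 were called in all 13 alternative fits. The remaining calls are named after their values were seen. SOD2, the mitochondrial superoxide dismutase, rose by 0.78 (edgeR adjusted p = 0.000988) in the main fit and in all 13 alternatives. KLF6 rose by 0.82 and BCL2L1 by 1.14. KLF6 lost its call without knockdown 3 (0.81) or control 3 (0.68), and BCL2L1, called in 8 of 13 alternative fits, when knockdown 1 (1.15) or 3 (1.05) or control 1 (0.86) or 3 (1.15) was left out. TNFAIP8 fell by 1.10, SERPINB2 by 1.10 and GADD45B by 0.80. Without knockdown 3 or control 3 each of these 3 falls lost its call, at -1.05 and -0.91, at -1.05 and -1.07, and at -0.73 and -0.71. The call of TNFAIP8 was also lost without knockdown 1 (-0.95) or control 2 (-1.02), that of SERPINB2 without control 1 (-1.04) or control 2 (-1.21), and that of GADD45B without knockdown 1 (-0.66), control 1 (-0.85) or control 2 (-0.85). SERPINB2 stood at -1.65 without knockdown 2. With scaling by library size, the calls of SERPINB2 (-1.01, edgeR adjusted p = 0.0764) and GADD45B (-0.72, edgeR adjusted p = 0.0703) were lost as well.

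**Figure D4:**
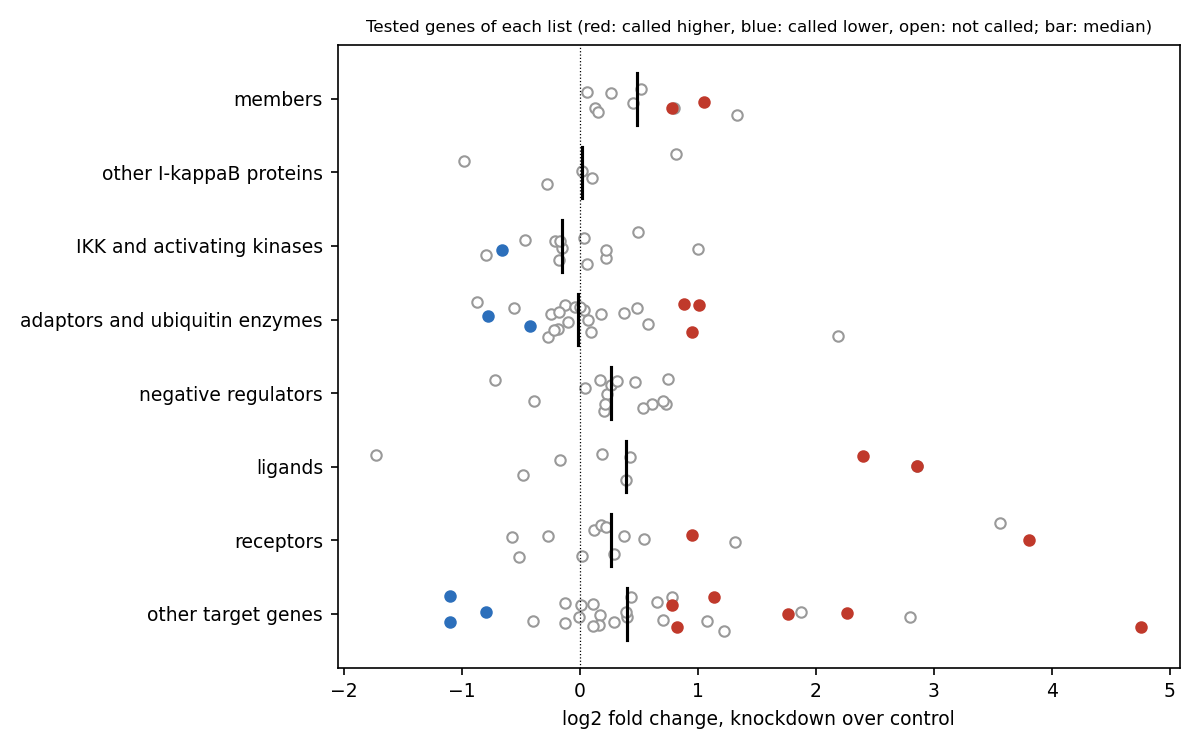
Log2 fold change (horizontal axis) of every tested gene in the members and 7 pathway lists; red points were called higher, blue points lower, open points were not called, and black bars are list medians. The medians lie between -0.15 (IKK and activating kinases) and 0.48 (members), and CCL2 at 4.76 is the point farthest to the right.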

How the data were processed

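The authors deposited a table of unnormalised read counts by Ensembl identifier for each library. Per the submitters' processing notes, HISAT2 2.1.0 and featureCounts 1.6.3 were used and the builds GRCh38 and GRCm38 are named, without their roles. Per the labels' protocols, libraries came from a stranded mRNA kit. How reads that align to several places were treated, and which annotation and strand setting served for counting, is not given in the sources used here. Symbols came from a table of current names and GENCODE release 29, and all 195 listed genes matched exactly 1 identifier.

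Counts were fitted in edgeR 4.0.16 (R 4.3.3; quasi-likelihood F test, group as the only term, TMM, default filterByExpr, two-sided) over 14018 genes, with Benjamini-Hochberg adjustment over all of them and calls at an adjusted p under 0.05. CPM are TMM-normalised. Standard errors were computed from each log2 fold change and the F statistic of its test. Intervals of log2 fold changes use these standard errors, so they carry the same information as the unadjusted p. They are not adjusted for the number of genes. TPM use the union of GENCODE exons. Gene positions are on GRCh38. The fits were tested on simulated data, with changes placed only in genes of higher level. Whether changes in genes as low as NFKB2, RELB and BIRC3 are recovered was not tested.

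Named genes are all members and OSGEP. For each pathway list they are the called genes that changed most, up to 3, if their mean reached 5 CPM, or else the 2 most abundant. Genes outside that rule are said to be chosen after their values were seen. Members and lists were chosen with earlier results of these data known. Alternatives were RLE factors, library size alone, other filters, the replicate block, DESeq2 1.42.0, limma-voom (limma 3.58.1), a stricter threshold, each library left out and another gene length.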

Additional observations from a re-analysis of the deposited data

How the results depend on the processing

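Calls among the members numbered 2 in the main fit, 4 with DESeq2 (NFKB2 and NFKBIE in addition, where 1874 genes were called, 954 of them higher) and 2 or 3 under every other alternative, including 2 to 3 when single libraries were left out. Over all genes the count of 1507 was 823 at an adjusted p under 0.01 and ranged from 870 to 1624 without single libraries (870 without control 3, 890 without control 2, 941 without knockdown 3). The split of 727 higher and 780 lower became 859 and 612 where only library size was used for scaling. The 19 calls in the pathway lists were 9 at an adjusted p under 0.01 and 10 to 17 without single libraries, and their split of 13 higher and 6 lower became 17 and 2 with library size. They numbered 25 with DESeq2 (18 higher, 7 lower), 23 without the filter and 22 with a mean CPM filter of 5.

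Of 440 values of single genes under alternatives, 364 kept direction and call, 57 lost a call, 7 gained one and 12 turned sign, the last all for genes that were not called. REL turned to -0.06 with the replicate block and -0.04 with limma-voom, and ranged from -0.37 to 0.38 without single libraries. NFKBID turned to -0.02 with limma-voom and ranged from -0.16 to 0.13. Without single libraries NFKB1 ranged from -0.04 to 0.26, RELB from -0.10 to 0.80, NFKBIB from -0.0012 to 0.21 and TNIP1 from -0.12 to 0.23. The cause was not tested. Levels per length moved beyond 1 SD for 8 of 20 values with the longest transcript, with the changes of order and separation given above.

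Replicate numbers are shared by the groups. Deviations from the group mean of same-numbered libraries had r = -0.116, -0.062 and -0.037 across genes, and other pairs ran from -0.038 to 0.104. With 3 libraries a group these values depend on each other, so they cannot decide whether same-numbered libraries were handled together. With the replicate block 1072 genes, 12 pathway genes and the same 2 members were called. The calls lost with it were those of IKBKB (-0.69), RIPK1 (1.01), TRAF3 (0.90), UBE2N (-0.42), IL1R1 (4.32), BCL2L1 (1.21) and GADD45B (-0.83). RELB, NFKB2 and BIRC3 reached at most 9.37, 11.4 and 16.0 CPM in any library, and whether depth limits their tests was not tested.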
